A study of Mus musculus with 6 samples.

Results

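Nucleolar ribosome biogenesis factors were examined in splenic erythroid cells of mice with sickle cell disease, with and without the transcription factor Nrf2. The set comprised 43 named genes of the nucleolus: subunits of RNA polymerase I, nucleolar scaffold proteins, the core proteins of the small nucleolar ribonucleoproteins (snoRNPs), and factors that process ribosomal RNA (rRNA) and assemble the ribosomal subunits. Each gene was found by its symbol in the deposited table of 35178 gene symbols. All 43 passed the filter on low counts, among 13721 genes tested.

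Ribosomes are built in the nucleolus, where RNA polymerase I transcribes a long precursor that is modified by guide snoRNPs, cut, and folded together with ribosomal proteins into the 40S and 60S subunits. Erythroid cells make most of their ribosomes as early, dividing precursors and shut the nucleolus down as they mature, while translation of globin goes on with the ribosomes already made. Inherited defects of ribosome production present as failure of red cell formation in Diamond-Blackfan anaemia, and a mutated nucleolar factor, treacle, causes Treacher Collins syndrome.

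KO libraries, labelled Nrf2 knockout, were compared with WT libraries, labelled wild type for Nrf2. Each group had 3 libraries. Every animal had sickle cell disease, was 2 to 3 months old and was on a mixed B6;129P2 background, so both groups carry the disease and there is no group without it. RNA came from spleen cells positive for Ter119, a surface marker of maturing erythroid cells. The labels name neither the sickle alleles, the deleted part of Nrf2, the sex of the animals nor whether each library is a separate animal. The error behind each p-value is therefore that of libraries, and part of it may be technical.

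Library totals were 16420054 to 21429460 reads in KO and 16728880 to 21790983 in WT. Nfe2l2, the gene of Nrf2, had 63.4, 76.8 and 68.6 CPM (counts scaled to a common library size) in KO replicates 1, 2 and 3, against 98.7, 71.0 and 75.2 CPM in WT replicates 1, 2 and 3 (adjusted p = 0.556 by edgeR's quasi-likelihood test). The groups overlapped, and reads outside a deleted exon check nothing about the genotype. Of the 10 erythroid markers examined all were present in every library, among them the anion exchanger Slc4a1 at 11486 to 12763 CPM in KO and 15539 to 16124 CPM in WT. Xist and 4 chromosome Y genes divided the libraries: Xist had 15.4, 0.674 and 860.1 CPM in KO replicates 1, 2 and 3 and 807 to 1248 CPM in WT, and the Y-linked Ddx3y had 84.9, 96.5 and 1.66 CPM in those KO libraries and none in WT. KO replicates 1 and 2 thus stood far from every WT library in sex-linked transcripts, while KO replicate 3 had Xist within the WT range and few Y-linked reads. The KO libraries therefore did not all come from the same animal. In KO replicates 1 and 2, a difference that goes with sex cannot be told apart from that of Nrf2. Values with KO replicate 3 alone are given after those of all libraries.

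Transcripts of the nucleolar factors were higher in KO as a body, by a modest amount, and no single gene passed the threshold of the test across all genes. The members were chosen with earlier results of these data known, and they share the same libraries. The counts below, beside the shares of all genes, are therefore a description and no test of the set. The fitted change was above 0 for 42 of the 43, with a median log2 fold change of 0.39, where 52.9% of all genes tested were above 0 with a median of 0.02. At an adjusted p under 0.05 by edgeR's quasi-likelihood test with Benjamini-Hochberg adjustment over all 13721 genes, 0 of the 43 were called, higher or lower; over all genes 0.0219% were called, all of them lower in KO. At an unadjusted p under 0.05, which is not a call, 24 of the 43 were higher in KO and 0 lower, where 6.25% of all genes were higher and 5.98% lower. In 26 of the 43 every KO library lay above every WT library, against 10.3% of all genes, and in 0 did every KO library lie below, against 7.91%. DESeq2's Wald test called 7 of the 43 higher, against 1.13% of the genes it adjusted, and limma-voom called 0, with 22 at an unadjusted p under 0.05, against 5.97% of all genes. Scaled by library totals alone, which moves the median of all genes to 0.15, edgeR called 2 of the 43 higher, against 0.175% of all genes, with 38 at an unadjusted p under 0.05, against 15.7%. Without a filter on low counts it called 5 of the 43, against 0.277% of all genes.

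Added together, transcripts of the 43 reached 4209, 3731 and 4005 CPM in KO replicates 1, 2 and 3, against 3169, 2828 and 3017 CPM in WT replicates 1, 2 and 3. The lowest KO library lay above the highest WT library, and the KO mean of 3982 ± 239.5 CPM was 1.32 times the WT mean of 3004 ± 171 CPM (SD, n = 3 each). Npm1 and Ncl, the most abundant members in CPM, weigh most in this sum. Their KO means were 761 and 827 CPM, against 488 and 600 CPM in WT. Summed by role, the ratio was 1.43 for RNA polymerase I and scaffold genes, which include both, and 1.2 to 1.29 for the other roles. An exact two-sided permutation test of 3 libraries against 3 cannot give a p below 0.1. In bulk RNA, more cells of a kind that makes ribosomes and more such RNA in each cell cannot be told apart.

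Markers of maturing erythroid cells stood on the other side. All 10 were lower in KO, with every KO library below every WT library, against 7.91% of all genes, and 0 passed the threshold. Their summed level was 23754 to 25494 CPM in KO and 33422 to 35020 CPM in WT. The 8 early erythroid and progenitor markers summed to 232 to 291 CPM in KO and 223 to 276 CPM in WT, with 6 of 8 above 0, and the stem cell factor receptor Kit overlapped, at 33.2 to 39.1 CPM in KO and 28.3 to 51.9 CPM in WT. All 8 cycling markers were below 0, with a median log2 of -0.22. Macrophage markers summed to 1460 to 1785 CPM in KO and 1329 to 1490 CPM in WT, with 9 of 10 above 0. B cell markers summed to 75.3 to 685 CPM in KO and 272 to 683 CPM in WT, with 7 of 7 below 0. T cell markers summed to 26.0 to 46.2 CPM in KO and 27.7 to 40.8 CPM in WT, with 5 of 7 below 0. Neutrophil markers summed to 472 to 635 CPM in KO and 311 to 974 CPM in WT, with 7 of 8 below 0. Platelet markers summed to 155 to 191 CPM in KO and 148 to 335 CPM in WT, with 7 of 7 below 0. No marker of another cell type was at 0 in any library. The part of these cells and of erythroid stage in the change of the nucleolar factors was not tested.

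**Figure D1:**
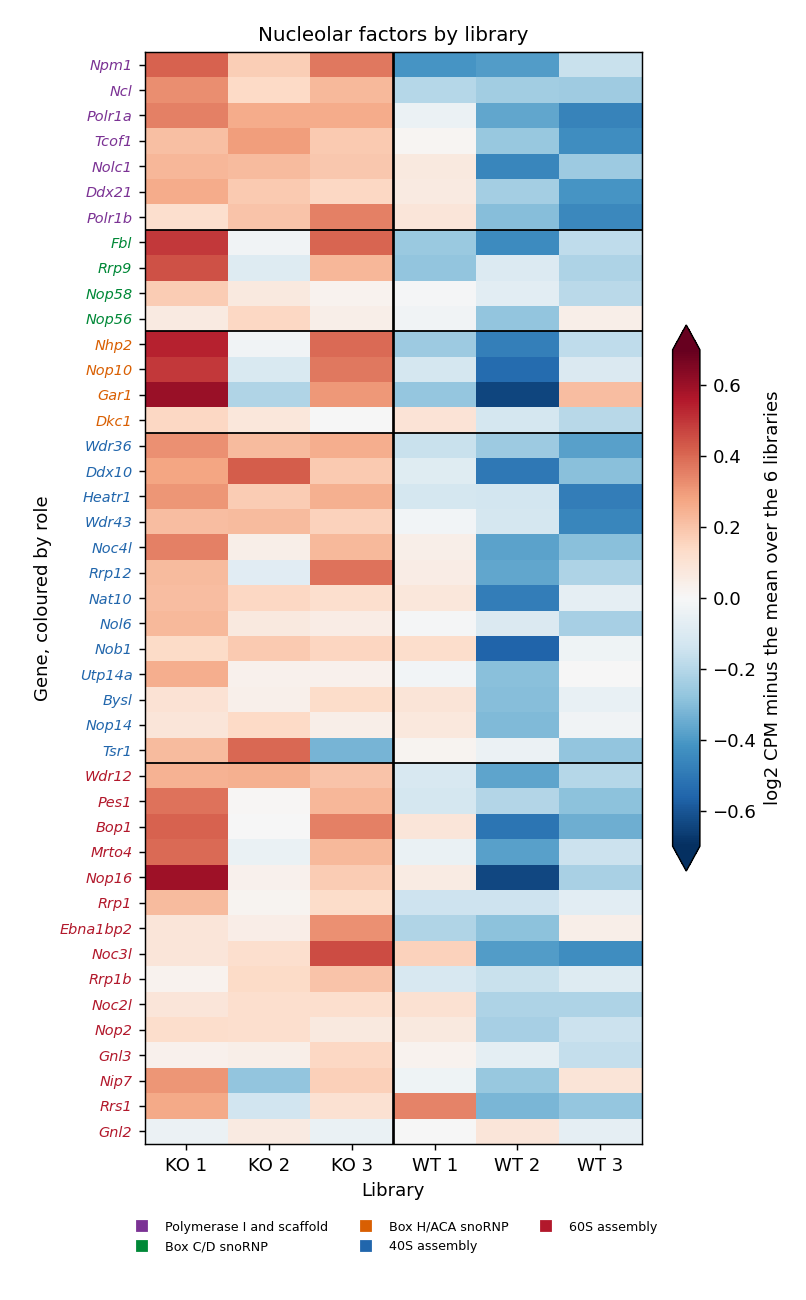
Each row is a nucleolar factor and each column a library, KO left of WT; the colour is log2 CPM minus the gene's mean over the 6 libraries, and gene names are coloured by role. KO columns are mostly above the mean and WT replicates 2 and 3 mostly below, while WT replicate 1 lies near it. The members' median deviation is 0.23, 0.08 and 0.18 in KO replicates 1, 2 and 3. In WT replicates 1, 2 and 3 it is -0.01, -0.29 and -0.20. KO replicate 1 is the highest of all libraries for 25 genes and WT replicate 2 the lowest for 22.

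RNA polymerase I and the scaffold of the nucleolus formed the role with no overlap between the groups in any of its 7 genes. Only Polr1a and Polr1b among them are polymerase subunits, and of 14 further polymerase I genes, described below, 11 overlapped. All 7 had a fitted change above 0, with log2 changes of 0.38 to 0.64 (median 0.44), and 0 of the 7 passed the adjusted threshold. In all 7 every KO library lay above every WT library, against 10.3% of all genes. Npm1 encodes nucleophosmin, the abundant protein that organises the granular outer layer of the nucleolus. It lies on chromosome 11 from 33152287 to 33163206 on the minus strand (mm10). It had 810.1, 686 and 786 CPM in KO replicates 1, 2 and 3, against 457, 463 and 546 CPM in WT replicates 1, 2 and 3. Every KO library stood above every WT library, for a log2 change of 0.64 (SE 0.117, 95% interval 0.38 to 0.90, adjusted p = 0.0906 by edgeR). This was the lowest adjusted p of the 43. Processed copies of Npm1 exist in the mouse genome, and how the counting split reads among them is not given in the sources used here.

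Ncl encodes nucleolin, which binds nascent precursor rRNA, and lies on chromosome 1 from 86344719 to 86359400. It had 883, 775 and 824 CPM in KO replicates 1, 2 and 3, against 612, 596 and 593 CPM in WT. The WT libraries were tightly grouped and all KO libraries lay above them (log2 0.46, SE 0.101, adjusted p = 0.123 by edgeR). Polr1a, the largest catalytic subunit of RNA polymerase I, on chromosome 6 from 71909053 to 71984935, had 45.2, 42.3 and 42.3 CPM in KO replicates 1, 2 and 3, against 34.4, 27.5 and 25.6 CPM in WT (log2 0.57, SE 0.138, adjusted p = 0.157 by edgeR). Its KO libraries differed little from each other and none reached down to the WT range. The second-largest subunit, Polr1b, had a log2 change of 0.43. Tcof1, which encodes treacle, a partner of RNA polymerase I at the ribosomal genes, had 0.44, and its structural relative Nolc1, which shuttles snoRNPs, 0.41. The RNA helicase Ddx21, which acts in polymerase I transcription and rRNA processing, had 0.38.

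The box C/D snoRNPs, which guide methylation of rRNA, were mixed. Fbl encodes fibrillarin, the methyltransferase itself, and lies on chromosome 7 from 28169710 to 28179269. It had 149, 104 and 140.1 CPM in KO replicates 1, 2 and 3, against 88.4, 77.8 and 93.6 CPM in WT. The groups did not overlap, though KO replicate 2 stood well below the other KO libraries (log2 0.60, SE 0.142, adjusted p = 0.145 by edgeR). Rrp9, a protein particular to the U3 snoRNP that opens the first cuts of the precursor, had 25.0, 17.3 and 21.5 CPM in KO replicates 1, 2 and 3, against 15.1, 17.2 and 15.8 CPM in WT. KO replicate 2 was level with WT replicate 2 (log2 0.41, SE 0.171, adjusted p = 0.377 by edgeR). The paired scaffold proteins Nop58 and Nop56 stood closer to WT, with log2 changes of 0.18 (95% interval -0.05 to 0.41) and 0.16 (95% interval -0.08 to 0.40). Nop58 had 111, 103 and 100.4 CPM in KO replicates 1, 2 and 3, against 98.0, 93.8 and 86.5 CPM in WT, without overlap but with a small gap.

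The box H/ACA snoRNPs convert uridine to pseudouridine in rRNA, and their 4 core proteins ranged widely. Nhp2, an RNA-binding subunit, on chromosome 11 from 51619735 to 51623714, had 88.8, 59.9 and 80.4 CPM in KO replicates 1, 2 and 3, against 51.2, 43.8 and 54.0 CPM in WT. All KO libraries lay above WT (log2 0.62, SE 0.152, adjusted p = 0.161 by edgeR). Nop10, the smallest subunit, had 51.4, 33.9 and 47.2 CPM in KO replicates 1, 2 and 3, against 33.5, 25.2 and 34.0 CPM in WT, and KO replicate 2 lay inside the WT range (log2 0.51, SE 0.177). Gar1, which helps load and release the target RNA, had the largest relative spread in both groups, with 58.7, 33.3 and 47.5 CPM in KO replicates 1, 2 and 3, against 32.0, 24.7 and 44.8 CPM in WT (log2 0.46, 95% interval -0.13 to 1.05). Dkc1 encodes dyskerin, the pseudouridine synthase, and lies on chromosome X from 75095854 to 75109777. It had 119, 113 and 107 CPM in KO replicates 1, 2 and 3, against 115, 98.7 and 94.1 CPM in WT. Its groups overlapped (log2 0.14, 95% interval -0.10 to 0.38), and KO replicate 3, the KO library with Xist, was the lowest of the KO libraries.

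Factors of the small subunit processome and of 40S assembly had fitted changes above 0 in 13 of 13 cases, with a median log2 change of 0.30. None of the 13 passed the adjusted threshold and 5 had an unadjusted p under 0.05, against 6.25% of all genes. In 9 of the 13 every KO library lay above every WT library, against 10.3% of all genes. Wdr36 is a beta-propeller subunit of the processome. It had 39.8, 37.2 and 38.0 CPM in KO replicates 1, 2 and 3, against 28.6, 26.7 and 24.5 CPM in WT. The gap between the groups was wider than the spread within either (log2 0.52, SE 0.124, adjusted p = 0.145 by edgeR). Ddx10, on chromosome 9 from 53098635 to 53248053, encodes an RNA helicase whose yeast counterpart releases a snoRNA from the precursor. It had 29.9, 33.1 and 28.0 CPM in KO replicates 1, 2 and 3, against 23.3, 17.4 and 20.1 CPM in WT, without overlap (log2 0.58, SE 0.151, adjusted p = 0.169 by edgeR). Heatr1, a large subunit needed for polymerase I transcription and early cleavage, had 49.9, 45.6 and 47.8 CPM in KO replicates 1, 2 and 3, against 36.9, 36.9 and 28.8 CPM in WT, again without overlap (log2 0.48, SE 0.131).

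Wdr43, of the same early subcomplex, had 60.3, 60.7 and 58.0 CPM in KO replicates 1, 2 and 3, against 51.2, 47.7 and 37.9 CPM in WT (log2 0.39, SE 0.129), and Noc4l, which in yeast acts in 40S maturation, had 60.9, 49.2 and 56.0 CPM in KO, against 49.2, 36.8 and 39.0 CPM in WT (log2 0.41, SE 0.140). Both were without overlap, Noc4l with KO replicate 2 and WT replicate 1 nearly level. Rrp12, needed for export of both subunits in yeast, had 21.9, 17.8 and 24.4 CPM in KO, against 19.5, 14.6 and 16.2 CPM in WT and overlapped (log2 0.35, 95% interval -0.04 to 0.73). The X-linked Utp14a had 27.8, 23.9 and 23.9 CPM in KO, against 23.1, 19.1 and 23.3 CPM in WT, just without overlap (log2 0.21, 95% interval -0.12 to 0.53); a gene on the opposite strand shares 473 exon bases with it. The remaining 6 were the rRNA acetyltransferase Nat10 (log2 0.30), the endonuclease of the last 18S cut Nob1 (log2 0.28), the processome subunit Nol6 (log2 0.23), the late 40S factor Tsr1 (log2 0.23), Nop14 (log2 0.17) and bystin, Bysl (log2 0.17). For Bysl, 361 exon bases are shared with the opposite-strand cyclin gene Ccnd3, and for Tsr1, 1240 bases are shared with Srr. Ccnd3 had 453 ± 103 CPM in KO and 720.3 ± 67.5 CPM in WT. Reads wholly within the shared bases cannot be told apart with a kit that does not mark strand. How such reads were counted is not given in the sources used here.

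Factors of 60S assembly had the lowest median of the 5 roles, 0.25, with 14 of 15 above 0 and 0 past the adjusted threshold. In 6 of the 15 every KO library lay above every WT library, against 10.3% of all genes. Pes1, Bop1 and Wdr12 form the PeBoW complex, which is needed to process the precursor of 28S rRNA, and all 3 had fitted changes above 0. Wdr12, on chromosome 1 from 60069785 to 60098645, had 38.5, 38.6 and 37.3 CPM in KO replicates 1, 2 and 3, against 30.1, 25.2 and 28.3 CPM in WT, with no overlap (log2 0.45, SE 0.1248, adjusted p = 0.196 by edgeR). Pes1 had 60.02, 46.5 and 54.2 CPM in KO, against 42.5, 40.02 and 37.8 CPM in WT, also without overlap (log2 0.42, SE 0.127, adjusted p = 0.228 by edgeR). Bop1 had 44.7, 33.6 and 42.9 CPM in KO, against 35.6, 23.6 and 26.5 CPM in WT, and KO replicate 2 lay below WT replicate 1 (log2 0.50, SE 0.175, adjusted p = 0.295 by edgeR).

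Nop16, a nucleolar protein that in yeast joins early 60S particles, had 29.9, 20.2 and 22.3 CPM in KO replicates 1, 2 and 3, against 20.6, 12.7 and 16.9 CPM in WT (log2 0.52, SE 0.208), and Mrto4, a relative of the ribosomal stalk protein, had 61.5, 45.2 and 54.7 CPM in KO, against 45.3, 35.9 and 42.2 CPM in WT (log2 0.39, SE 0.143). In both KO replicate 2 fell just short of clearing WT replicate 1. Rrp1 had 165, 144 and 155 CPM in KO, against 128, 128 and 135 CPM in WT, without overlap (log2 0.25, SE 0.0984). The remaining log2 changes were 0.42 for Noc3l, 0.30 for Ebna1bp2, 0.24 for Rrp1b, 0.21 for Noc2l, which shares 598 exon bases with the opposite-strand Samd11, 0.20 for the rRNA cytosine methyltransferase Nop2, 0.15 for Nip7, 0.14 for the GTPase nucleostemin, Gnl3, and 0.13 for Rrs1. Gnl2, a nucleolar GTPase related to nucleostemin, was the member with a fitted change below 0, with 45.6, 49.0 and 45.4 CPM in KO, against 46.7, 49.7 and 44.9 CPM in WT (log2 -0.01, 95% interval -0.26 to 0.23, and log2 0.12 when scaled by library totals).

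**Figure D2:**
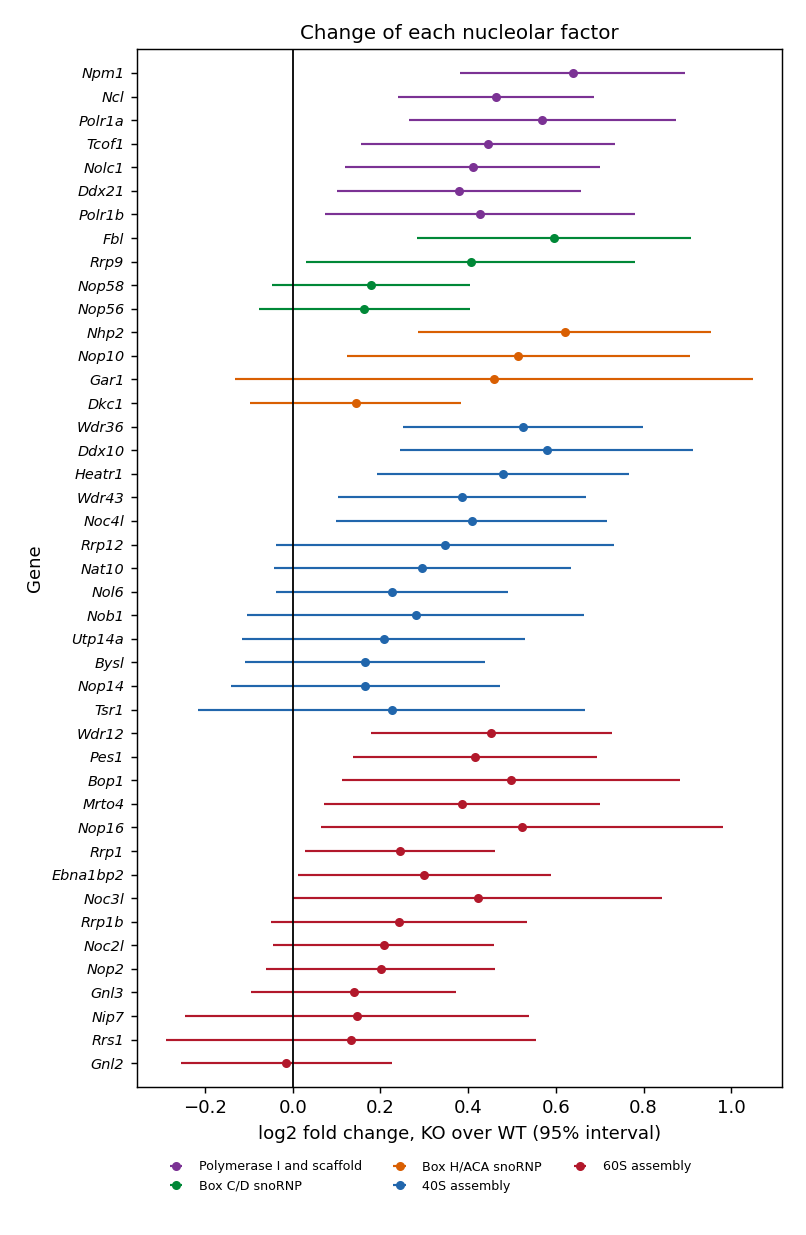
Points are fitted log2 fold changes of KO over WT for the 43 genes with 95% intervals from edgeR's quasi-likelihood fit, coloured by role and ordered by p within each role. The points run from -0.01 for Gnl2 to 0.64 for Npm1, and 24 intervals lie wholly above 0 before any adjustment for the number of genes tested.

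**Figure D3:**
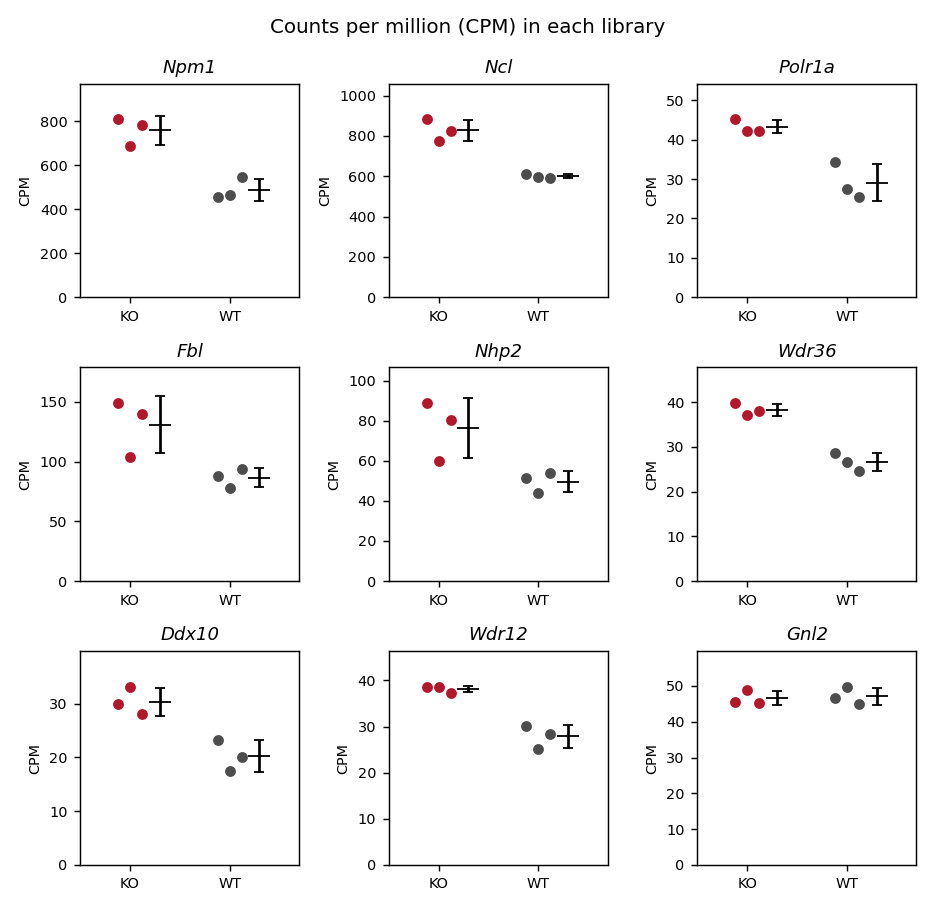
Points are CPM in each library, KO left of WT, with the mean and SD (n = 3 each) beside them, for 9 of the genes on axes that start at 0. For 8 genes all KO points lie above all WT points, as with Polr1a at 42.3 to 45.2 CPM in KO and 25.6 to 34.4 CPM in WT, while Gnl2 overlaps. Those 8 are among the members of smallest p in their roles, so their separation goes with the choice. Of all 43 members, 26 have every KO library above every WT library, against 10.3% of all genes, and 17 overlap.

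Members of the set were expressed at very different levels. Per kilobase of the longest annotated coding sequence, Npm1 was highest, at 868 ± 75.1 CPM per kilobase in KO and 558 ± 56.8 in WT (SD, n = 3 each). Ncl followed, at 389.98 ± 25.4 CPM per kilobase in KO and 283 ± 4.95 in WT, and Rrp12 was lowest, at 5.50 ± 0.859 in KO and 4.31 ± 0.636 in WT. Reads of untranslated exons are included in these counts, so the levels favour genes with long untranslated regions.

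Promoters were searched for the E-box CACGTG, the motif that MYC and MAX dimers bind, since many nucleolar genes are known MYC targets. The motif reads the same on both strands. In RefSeq windows on GRCm38.p6, from 250 bases before to 50 after the transcription start, 4 of the 34 members with a window held it (11.8%), against 1128 of 9873 tested genes with a window (11.4%). The members were Pes1, Wdr43, Nop2 and Tsr1. The windows of Pes1 and Wdr43, the members of these 4 with an unadjusted p under 0.05, are shown with the E-box in capitals. The Pes1 window is chr11:3963725-3964024 on the plus strand, with the E-box at bases 253 to 258, and the Wdr43 window is chr17:71615965-71616264 on the plus strand, with the E-box at bases 268 to 273. In each the last 50 bases begin at the transcription start.
Pes1: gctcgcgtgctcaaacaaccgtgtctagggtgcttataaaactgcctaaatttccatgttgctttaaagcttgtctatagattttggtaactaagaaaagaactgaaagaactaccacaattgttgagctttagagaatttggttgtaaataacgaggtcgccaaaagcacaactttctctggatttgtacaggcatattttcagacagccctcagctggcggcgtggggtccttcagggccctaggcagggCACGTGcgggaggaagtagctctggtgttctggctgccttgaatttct
Wdr43: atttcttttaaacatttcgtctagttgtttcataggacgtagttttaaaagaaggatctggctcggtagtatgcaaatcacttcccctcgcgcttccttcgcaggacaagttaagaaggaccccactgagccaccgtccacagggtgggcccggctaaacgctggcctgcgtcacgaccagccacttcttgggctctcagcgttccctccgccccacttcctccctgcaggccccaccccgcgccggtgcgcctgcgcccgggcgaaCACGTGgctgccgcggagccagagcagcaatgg
A match is a description of the sequence and not a site of binding.

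Libraries of 1 group stood in a similar order for many of the members. Among the KO libraries, replicate 1 was the highest for 26 of the 43 and replicate 2 the lowest for 22. Among the WT libraries, replicate 1 was the highest for 30 and replicate 2 the lowest for 23. The coefficient of variation within KO had a median of 6.80%, from 1.30% for Noc2l to 27.3% for Gar1; within WT the median was 12.3%, from 1.75% for Ncl to 30.0% for Gar1.

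Other genes of ribosome assembly were also mostly above 0, with a smaller median. These lists too were chosen with earlier results of these data known. Of 129 further entries listed for this pathway 126 were in the table and tested, and 118 were above 0 with a median log2 change of 0.25. None was called over all genes; 39 were higher and 0 lower at an unadjusted p under 0.05, against 6.25% and 5.98% of all genes, and 53 had every KO library above WT, against 10.3%. Among 43 further 40S factors, 41 were above 0. Pno1, which guides 40S maturation and partners Nob1, had 24.6, 25.1 and 23.8 CPM in KO replicates 1, 2 and 3, against 15.9, 13.9 and 15.996 CPM in WT (log2 0.68, SE 0.143, adjusted p = 0.114 by edgeR). Ltv1 (log2 0.55), Utp20 (log2 0.49) and Wdr46 (log2 0.50) had the next smallest p. Among 48 further 60S factors, 47 were above 0, and the 4 of smallest p were Rsl1d1 (log2 0.41), the helicase Ddx56 (log2 0.47), Wdr18 (log2 0.41) and Zcchc9 (log2 0.55). Sbds, the factor mutated in Shwachman-Diamond syndrome that frees new 60S subunits for translation, was the 1 below 0, with 76.3, 81.9 and 76.0 CPM in KO against 82.5, 82.6 and 87.1 CPM in WT (log2 -0.11, 95% interval -0.33 to 0.11); it is named after its value was seen.

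Among the 21 tested genes of snoRNP assembly and of the rRNA exosome, 20 were above 0. The snoRNP chaperone Ruvbl2 had 76.2, 66.6 and 69.1 CPM in KO replicates 1, 2 and 3, against 54.6, 37.9 and 48.3 CPM in WT, without overlap (log2 0.59, SE 0.140, adjusted p = 0.145 by edgeR). Exosc1 (log2 0.48), Ruvbl1 (log2 0.35) and Exosc5 (log2 0.40) had the next smallest p. The further polymerase I genes were less uniform, with 10 of 14 above 0 and a median of 0.17. Rrn3, the initiation factor that recruits polymerase I, had 46.5, 50.4 and 47.9 CPM in KO, against 39.2, 32.1 and 32.6 CPM in WT (log2 0.48, SE 0.124, adjusted p = 0.167 by edgeR). The shared subunit Polr1c (log2 0.50), Taf1d (log2 0.36) and Polr1e (log2 0.44) had the next smallest p, whereas the upstream binding factor Ubtf had 349.7, 354 and 338 CPM in KO against 386, 316 and 397 CPM in WT (log2 -0.08), also named after its value was seen.

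Host genes of snoRNAs lay closer to all genes. Of 15 listed, 9 were in the table and 8 were tested; 5 were above 0, with a median of 0.08, and 0 had an unadjusted p under 0.05. Gas5, at 193, 184 and 175 CPM in KO and 169, 156 and 229 CPM in WT, overlapped fully, as did Snhg1; both are named after their values were seen. The 4 with the smallest p were Snhg12 (log2 0.29), Snhg6 (log2 0.23), Snhg4 (log2 0.15) and Snhg9 (log2 -0.44). In the MYC and MAX network 9 of 12 were above 0, with a median of 0.10. Myc, the factor itself, had 47.9, 47.4 and 61.0 CPM in KO replicates 1, 2 and 3, against 61.1, 46.9 and 42.7 CPM in WT, and the groups overlapped (log2 0.05, SE 0.157). None of the MAX partners that oppose MYC passed the threshold. Those at an unadjusted p under 0.05 by edgeR were Mxd3, Mxi1 and Mxd1, all lower in KO, against 5.98% of all genes. In Mxd3 (log2 -0.39, SE 0.127), Mxi1 (log2 -0.59, SE 0.214) and Mxd1 (log2 -0.26, SE 0.106) every KO library lay below every WT library, against 7.91% of all genes. In Mnt (log2 0.25, SE 0.152, unadjusted p = 0.134 by edgeR) every KO library lay above every WT library, against 10.3% of all genes. Mxd4, named after its value was seen, overlapped (log2 0.03).

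**Figure D4:**
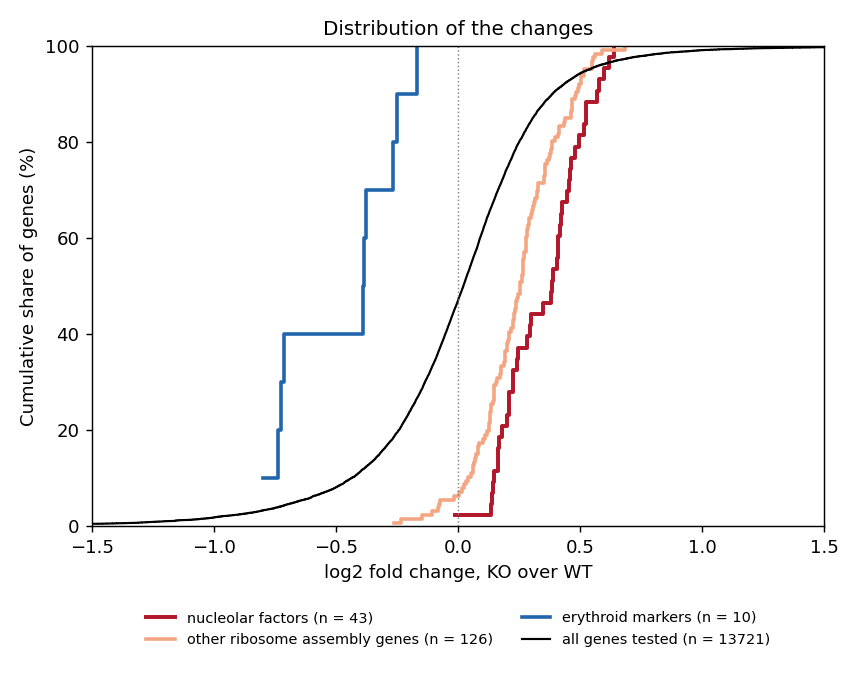
Lines give the cumulative share of genes, in percent, up to each log2 fold change of KO over WT, for the 43 nucleolar factors, 126 other ribosome assembly genes, 10 erythroid markers and all 13721 genes tested; the axis is cut at 1.5 on either side. The nucleolar factors lie right of all genes around their median of 0.39, and the erythroid markers lie left, around -0.39.

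The median change was as large in the KO library that carries Xist. With KO replicate 3 alone against WT, in a fit that assumes it varies like the other libraries, the median log2 change of the 43 was 0.40, and 41 were above 0, where all genes had a median of 0.03. Npm1 had a log2 of 0.69, Fbl 0.69 and Nhp2 0.695, and 15 of the 43 had an unadjusted p under 0.05, against 3.83% of all genes. With genes on X and Y left out, 40 of the 41 remaining members were above 0. Leaving out single libraries, the log2 change of Npm1 ran from 0.57 to 0.73, that of Ncl from 0.39 to 0.50 and that of Polr1a from 0.48 to 0.71. The number with an unadjusted p under 0.05, which was 24 with all libraries, was 13 without KO replicate 1 (3.09% of all genes), 16 without KO replicate 3 (3.53%), 15 without WT replicate 2 (4.64%) and 27 without WT replicate 1 (5.34%).

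**Figure D5:**
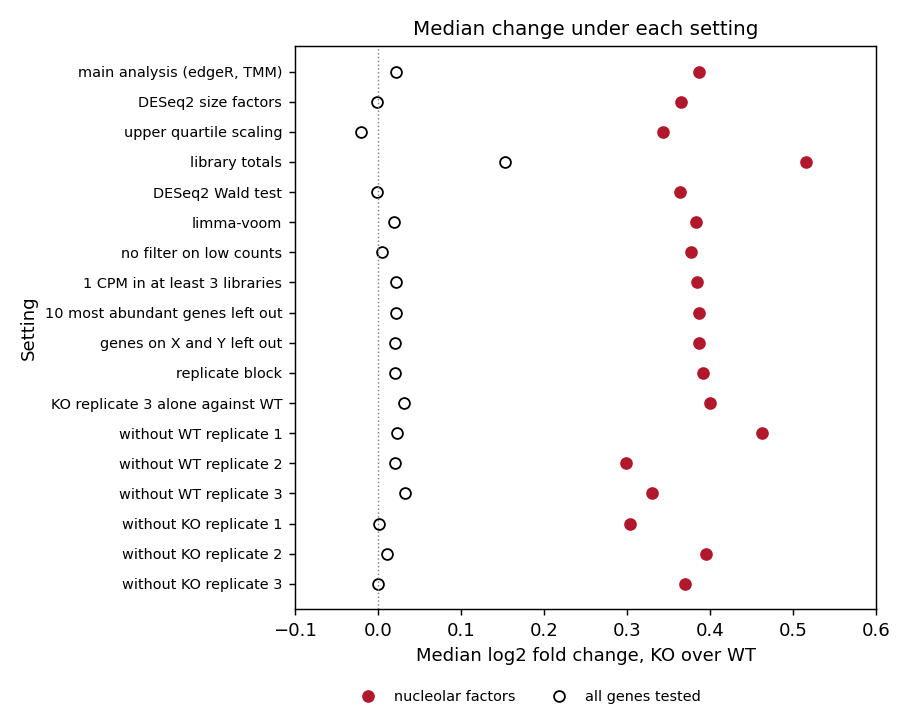
Filled points are the median log2 fold change, KO over WT, of the nucleolar factors and open points that of all genes tested, under the main analysis and 17 alternatives. Under library totals both move right, to 0.52 for the nucleolar factors and 0.15 for all genes, and the gap between them stays at 0.28 to 0.44 in every setting drawn.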

How the data were processed

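Per the labels' protocols, a PureLink kit was used for RNA and an Illumina TruSeq version 2 kit, which does not mark strand, for libraries. The authors deposited raw read counts for each gene symbol. STAR 2.5, HTSeq, DESeq2 and mm10 are named without a role in the submitters' processing notes; no source used here gives the annotation or the strand setting. Of 35275 lines, 27 held dates in place of gene names (0.340% to 0.383% of reads) and were left out, and 122 lines sharing 52 symbols were summed. Counting precision is limited by the 16420054 to 21790983 reads per library.

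KO was compared with WT in edgeR 4.0.16 (R 4.3.3): filterByExpr, TMM scaling, robust quasi-likelihood F test, no covariate, Benjamini-Hochberg adjustment over 13721 genes, threshold 0.05. CPM are counts over TMM-scaled library sizes. SEs and 95% intervals come from the F statistic. Positions, coding lengths and exon overlaps come from GENCODE M21, on the mm10 assembly. The code was tested on simulated counts. Alternatives used DESeq2 1.42.0, limma 3.58.1, other scalings and filters, left-out genes and libraries, and a replicate block.

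The closest pair of libraries differed by a chi-square of 22.1 per gene, so none was counted as a duplicate. Members and lists were chosen with earlier results of these data known. Genes given values in each library by rule are the 3 (roles of up to 7 members) or 6 of smallest p per role. The rule also takes the X-linked Dkc1 and Utp14a, the highest and lowest per kilobase, and for other lists up to 4 of smallest p. Outside it are Gnl2, Myc, the genes marked as named after their values were seen, and the genes that check the libraries. Promoter windows shown are the 2 of smallest p that hold the E-box.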

Additional observations from a re-analysis of the deposited data

How the results depend on the processing

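The median log2 change of the 43 genes stayed above 0 under all 17 alternatives, and 40 of the 43 kept a change above 0 in each in which they were tested (the X-linked Dkc1 and Utp14a were not tested without X and Y genes). Leaving out single libraries it ran from 0.30 to 0.46, the number at an unadjusted p under 0.05 and higher from 13 to 27, and the number called over all genes, 3 in the main analysis, from 0 to 14; no member was called when any of the 6 libraries was left out. Scaling by library totals gave a median of 0.515 (0.15 for all genes), 33 calls over all genes, 2 members called (Npm1 and Ncl, against 0.175% of all genes) and 38 at an unadjusted p under 0.05 (15.7% of all genes). DESeq2's Wald test gave 385 calls and 7 members (Npm1, Ncl, Fbl, Nhp2, Wdr36, Polr1a and Ddx10, against 1.13% of the genes it adjusted), and edgeR without a filter 228 calls and 5 members (0.277% of all genes). Calls over all genes were 10 with DESeq2 size factors, 8 with upper quartile scaling, 0 with limma-voom, 9 with a filter of 1 CPM in 3 libraries, 9 without X and Y genes, and 6 with KO replicate 3 alone, where 15 members had an unadjusted p under 0.05; the cause was not tested. With the replicate block 9 genes and 0 members were called, and the median was 0.39. Same-numbered libraries correlated at 0.11, 0.06 and 0.00 in their deviations, and differently numbered ones at -0.122 to 0.055. The members' median level was highest in replicate 1 and lowest in replicate 2 of both groups. The labels give no pairing, so the main fit has no block, and whether the numbers pair libraries was not tested. Signs turned for Gnl2 (0.12 by library totals, and -0.0631 to 0.0282 leaving out single libraries, above 0 without WT replicate 2), Tsr1 (-0.23 with KO replicate 3 alone) and Nip7 (-0.0027 to 0.2893 leaving out single libraries, below 0 without KO replicate 1). The least abundant member value was 12.5 CPM, in Tsr1, and the common biological coefficient of variation between libraries was 0.223.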

Other observations

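Libraries differed in how member levels related to coding length. Over the 43 members, Spearman's rho of coding length with a gene's log2 CPM in 1 library, relative to the other libraries of its group, was -0.465, 0.513 and -0.326 in KO replicates 1, 2 and 3, and 0.353, 0.35 and -0.633 in WT replicates 1, 2 and 3. Over 12697 tested genes with a length, it was -0.309, 0.296 and -0.0548 in those KO libraries, and 0.0525, 0.173 and -0.212 in those WT libraries. WT replicates 1 and 2, often the highest and the lowest of their group for the members, had nearly the same rho. For each gene these deviations cancel out within a group. The values of rho in a group are therefore tied to each other, and nothing is drawn from their likeness. The genes share libraries and depth, so this is a description with no test. The log2 change of KO over WT had a rho with coding length of -0.0175 over the members and -0.0471 over all genes. The 21 members with coding lengths of 192 to 1764 bases had a median log2 change of 0.39 and the 22 of 2031 to 6429 bases one of 0.38.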
